A study of Mus musculus with 16 samples.

Results

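The genes described are 40 genes of mitosis and the G2/M transition: the mitotic cyclins with Cdk1, mitotic kinases, the spindle checkpoint, the machinery of anaphase, kinesins, kinetochore and spindle proteins, cytokinesis factors, and Mki67, Top2a and Foxm1. They were chosen by name, as the probes that carry a listed symbol or an older synonym of it, such as Cdc2a for Cdk1. All 40 genes were on the array, with 68 probes among the 41174 probes, and all 40 entered the test among 18403 genes. Of the 68 probes, 57 were tested.

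Most of these genes are transcribed little in a resting cell and are switched on late in the cell cycle, in G2 and mitosis. Their promoters are held silent by the DREAM complex, which sits on the cell cycle homology region, a short element near the start site, and they are activated through the same element by MuvB with B-Myb and Foxm1. NF-Y binds the CCAAT boxes that usually lie just upstream. In T cells their transcripts are commonly read as a trace of cells in division, with Mki67 as the best known marker.

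RNA came from CD8 T cells of C57BL/6N mice that were female and 7 weeks old. Cells carrying CD8 and Thy1.2 were sorted into a CD44-low fraction, called naive, and a CD44-high fraction, called memory phenotype. Each fraction was kept for 4 h without stimulus (resting) or with a mixture of 10 ng/mL PMA and 500 ng/mL ionomycin (stimulated), drugs that activate protein kinase C and raise calcium and so bypass the T cell receptor. The 4 groups of 4 arrays are therefore both cell types at rest and both after stimulation, and sort and culture were repeated on 4 occasions. Resting cells had also been cultured, so no group is freshly isolated, and memory phenotype is defined by CD44 and not by a known infection.

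Levels are log2 signal minus the 75th percentile of the array, so that 0 is that percentile and 1 unit is a doubling. Across arrays the percentile ran from 504.3 to 678.0 in intensity, with 59.3% to 66.5% of spots well above background. Cd8b1, a chain of CD8, was at 7.51 ± 0.17 (SD, n = 4) in naive resting and 7.31 ± 0.06 in memory resting cells, and Cd4 was at -4.46 ± 0.45 and -4.17 ± 0.10. Markers of other cell types gave a signal in the resting groups, and which cells carried their RNA was not tested. Some markers on the array were well above background on fewer than 3 of 4 arrays in every group. These were 2 of 7 for B cells (Pax5 and Fcrla), 2 of 9 for dendritic cells and MHC class II (Siglech and Clec9a) and 1 of 13 for monocytes, macrophages or neutrophils (Elane). Every other marker of these lists on the array was well above background on at least 1 array of each resting group. Foxp3, of regulatory T cells, was also well above background on fewer than 3 of 4 arrays in every group. Zbtb7b, of the CD4 lineage, was higher in resting memory than in resting naive cells by 3.44 ± 0.24. The 4 arrays of a group shared a slide and no slide held more than 1 group, and in each comparison below slide and group cannot be told apart. In these bulk samples fewer cycling cells and less RNA per cell cannot be told apart either.

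The promoters of the members are shown first, searched for the letters of the elements named above. Of the 40 genes, 33 matched the RefSeq promoter table of build GRCm38.p6, which gives 250 bases before and 50 after each annotated start. The letters TTTGAA or TTCGAA of the cell cycle homology region, read on both strands, occurred in 25 of these 33 genes (75.8%), against 21.7% of the 27025 genes in the table. CCAAT occurred in 26 of 33 (78.8%) against 41.1%. The E2F letters TTCGCGC were found in 1 of 33 (3.03%; 1.81% of all) and TTGGCGC in 4 of 33 (12.1%; 2.85% of all). A match is a description of letters, not evidence of a bound site.

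As examples, 10 windows follow, from 120 bases before to 30 bases from the start, 5′ to 3′ on the strand of the gene, with the homology region letters and CCAAT, on either strand, in capitals. Kif22 (chr7:127042391-127042540, minus strand), Cdc25b (chr2:131186828-131186977, plus strand), Racgap1 (chr15:99651627-99651776, minus strand) and Ccnb2 (chr9:70421525-70421674, minus strand) are members that fell after stimulation in both cell types. Bub1 (chr2:127831830-127831979, minus strand), Ube2c (chr2:164769809-164769958, plus strand), Cdk1 (chr10:69352883-69353032, minus strand) and Top2a (chr11:99024160-99024309, minus strand) were higher in resting memory cells and did not pass the test in the naive response. Cdc20 (chr4:118437314-118437463, minus strand) passed in no comparison. Birc5 (chr11:117849117-117849266, plus strand) fell in both cell types although this window holds none of the letters.
Kif22: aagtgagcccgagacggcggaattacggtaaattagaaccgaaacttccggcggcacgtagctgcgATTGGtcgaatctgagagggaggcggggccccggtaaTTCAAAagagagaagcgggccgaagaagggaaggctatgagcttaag
Cdc25b: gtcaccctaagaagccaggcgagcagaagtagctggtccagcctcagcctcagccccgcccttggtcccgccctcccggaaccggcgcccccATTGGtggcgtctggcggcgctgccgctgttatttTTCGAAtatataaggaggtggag
Racgap1: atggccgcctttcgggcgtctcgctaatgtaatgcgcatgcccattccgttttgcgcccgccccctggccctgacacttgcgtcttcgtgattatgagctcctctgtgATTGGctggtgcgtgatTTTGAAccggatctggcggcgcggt
Ccnb2: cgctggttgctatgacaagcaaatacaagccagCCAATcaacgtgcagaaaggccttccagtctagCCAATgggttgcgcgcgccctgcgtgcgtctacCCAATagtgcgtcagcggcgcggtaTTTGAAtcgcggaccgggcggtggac
Bub1: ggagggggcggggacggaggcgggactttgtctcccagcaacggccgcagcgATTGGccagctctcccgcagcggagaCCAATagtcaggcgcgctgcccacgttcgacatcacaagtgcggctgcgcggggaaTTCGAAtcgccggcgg
Ube2c: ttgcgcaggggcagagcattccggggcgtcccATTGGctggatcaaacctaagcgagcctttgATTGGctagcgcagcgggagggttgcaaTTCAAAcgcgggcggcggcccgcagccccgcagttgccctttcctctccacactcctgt
Cdk1: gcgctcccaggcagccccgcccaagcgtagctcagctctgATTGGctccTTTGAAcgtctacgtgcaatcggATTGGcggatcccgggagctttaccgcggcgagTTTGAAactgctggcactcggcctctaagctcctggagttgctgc
Top2a: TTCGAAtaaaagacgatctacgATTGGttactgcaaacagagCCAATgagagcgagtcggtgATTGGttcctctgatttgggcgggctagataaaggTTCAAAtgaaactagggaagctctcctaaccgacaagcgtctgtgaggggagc
Cdc20: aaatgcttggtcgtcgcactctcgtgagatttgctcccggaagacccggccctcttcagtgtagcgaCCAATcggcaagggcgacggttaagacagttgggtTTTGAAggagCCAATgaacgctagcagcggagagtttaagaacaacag
Birc5: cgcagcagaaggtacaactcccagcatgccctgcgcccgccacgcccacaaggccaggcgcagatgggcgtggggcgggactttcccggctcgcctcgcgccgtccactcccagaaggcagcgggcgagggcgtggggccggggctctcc

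The same letters thus stood near the annotated starts of genes that fell strongly, genes that did not pass, and genes higher in memory cells. Ccnb2, a B cyclin, has 3 matches to CCAAT and 1 to the homology region letters in this stretch, and Cdk1, its kinase, has 2 of each. Of the 25 genes with TTTGAA or TTCGAA, 11 fell in naive and 17 in memory cells after stimulation, and 15 were higher in memory cells at rest. Over all genes tested 32% fell in naive and 40.8% in memory cells, and 13.9% were higher at rest. Of the 8 genes in the table without them, 7 fell in each response and 7 were higher at rest. Of the 7 members not matched there, 4 fell in naive and 5 in memory cells, and 7 were higher at rest. These 8 are Ccnb1, Nek2, Melk, Mad2l1, Pttg1, Birc5, Cenpe and Nusap1. Matches to the homology region letters were densest around the start, with 10 matches per 33 members in the first 25 bases after it, or 30.3 per 100 genes, against 1.38 per 100 genes over the whole table. CCAAT was densest from 75 to 51 bases before it, at 36.4 against 7.5 per 100 genes.

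**Figure D1:**
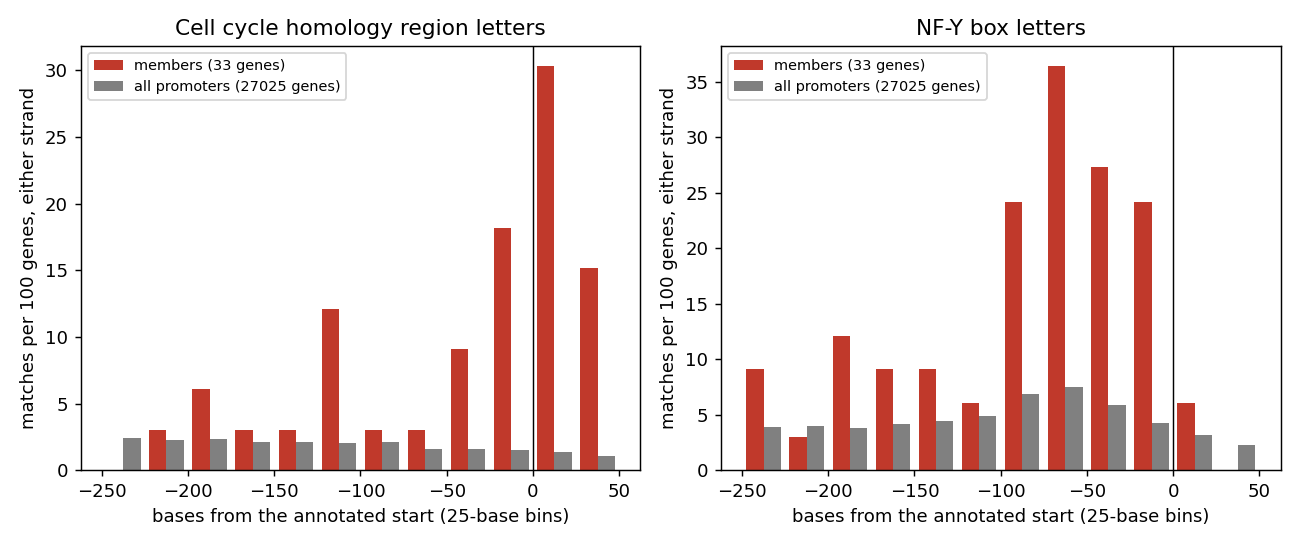
Matches to the homology region letters (left) and to CCAAT (right) per 100 genes, by distance in bases from the annotated start in bins of 25 bases, for the 33 members in the promoter table (red) and all 27025 genes of the table (grey). The red bars stand highest just after the start on the left, at 30.3, and from 75 to 51 bases before it on the right, at 36.4.

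Resting memory cells held more transcript of most mitotic genes than resting naive cells. Of the 40 members, 29 were higher, none was lower and 11 did not pass, against 13.9% of all genes tested that were higher and 7.47% lower (limma, adjusted p under 0.05; 2550 and 1375 genes). Over all members 38 differences were positive, and the median difference was 1.22 on the log2 scale, with -0.01 over all genes. The values of 31 members did not overlap between the groups on any array, a count that was not made over all genes. With the 2 members that had only a bound put at it the median was 1.18. Cdc25c, Ttk and Kif2c, among the 29, had entered the test only through memory groups, where they were brighter. Of the 33 members with probes above background on all 16 arrays, 23 were higher. With normexp background correction 28 members were higher and the median was 0.74, while the calls over all genes became 1638 higher and 1737 lower.

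**Figure D2:**
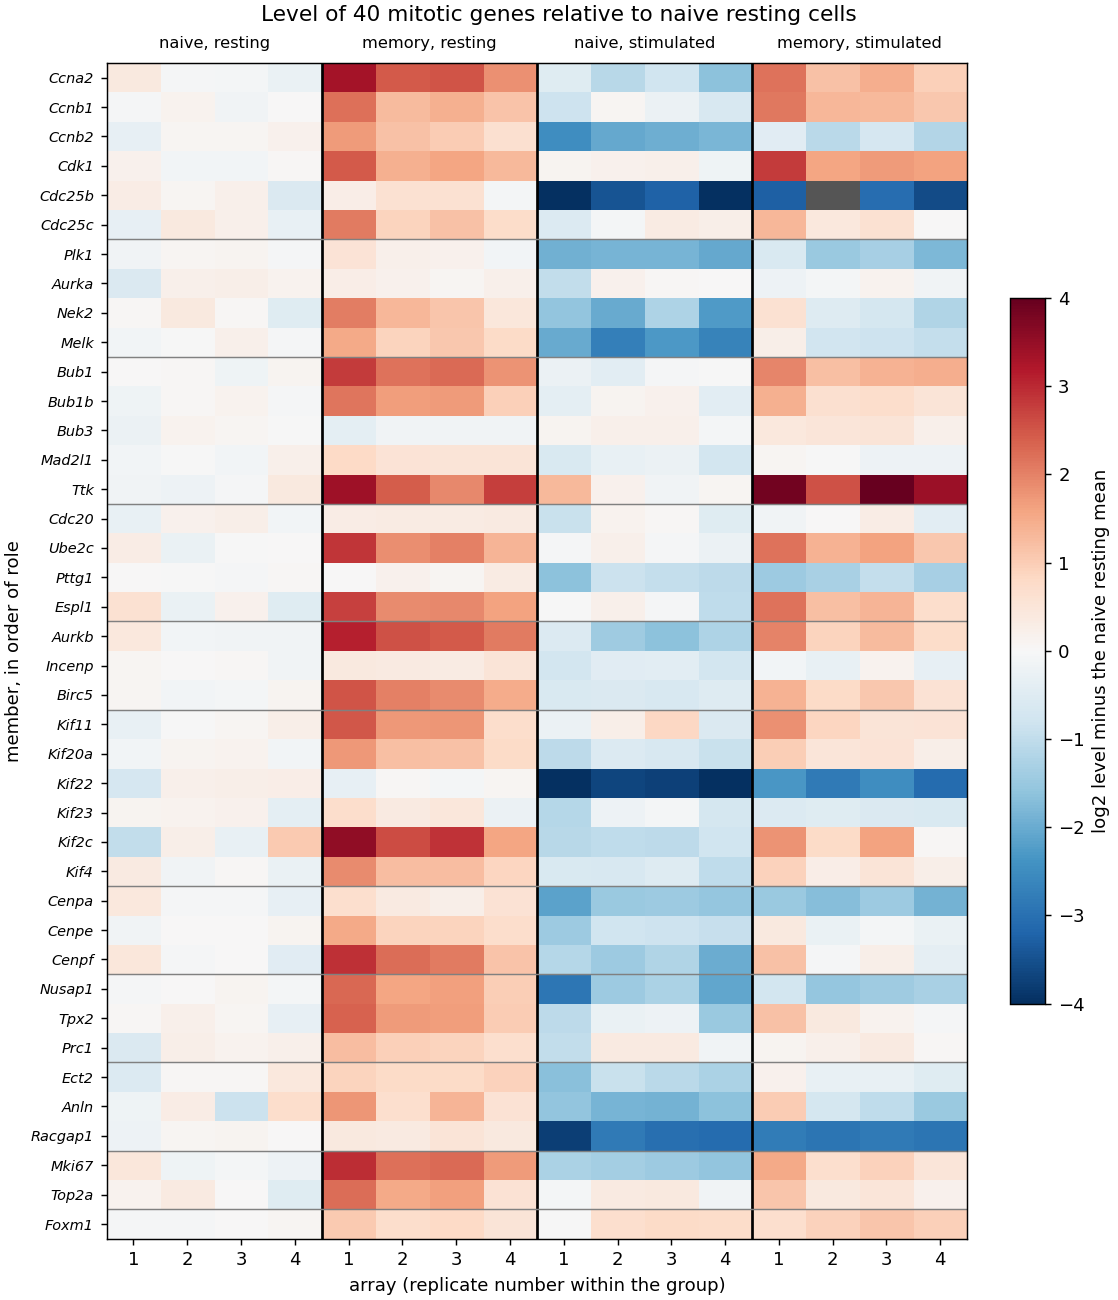
Level of each of the 40 members (rows, in order of role) on each of the 16 arrays (columns), as log2 level minus the naive resting mean of that gene, with the colour scale ending at 4 units either way and the grey cell a value left out as an outlier spot. Most rows are red on the 4 memory resting arrays, and Cdc25b, Kif22 and Racgap1 are deep blue on the stimulated arrays.

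Among the cyclins and their partners, cyclin A2 (Ccna2; mm7, chr3:36375837-36375896) differed most. Ccna2 was at -2.07, -2.50, -2.55 and -2.73 on the naive resting arrays and at 0.87, -0.02, 0.06 and -0.65 on the memory resting arrays. The lowest memory array lay more than a unit above the highest naive array, and the difference was 2.53 ± 0.32 (SE; adjusted p = 4.42e-05), or 5.78-fold. The B cyclins Ccnb1 (1.51 ± 0.26) and Ccnb2 (1.13 ± 0.22), the kinase Cdk1 (1.69 ± 0.27) and the phosphatase gene Cdc25c (1.22 ± 0.32; adjusted p = 0.013) were higher too. Cdc25c was well above background on 1 of 4 naive arrays, and its call ended with normexp (0.21), quantile scaling (0.95) and the authors' deposited table (0.32). Cdc25b, which removes inhibitory phosphates from Cdk1, did not pass (0.35 ± 0.26, adjusted p = 0.363).

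The chromosomal passenger complex, which corrects faulty chromosome attachments, was higher in all 3 subunits. Its kinase Aurkb (chr11:69133109-69133168) was at -3.90, -4.44, -4.47 and -4.46 in naive and -1.21, -1.78, -1.87 and -2.22 in memory resting cells. No array overlapped, and the difference was 2.54 ± 0.29 (adjusted p = 1.41e-05; 5.83-fold). Survivin (Birc5) differed by 1.98 ± 0.20 (adjusted p = 3.37e-06), and the scaffold Incenp by 0.40 ± 0.12 (adjusted p = 0.0308). The Incenp call was lost without any 1 resting array other than naive resting replicate 1, where the difference stayed between 0.35 and 0.42.

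Of the 5 spindle checkpoint genes, which delay anaphase until chromosomes are attached, 4 were higher at rest. Ttk (chr9:83963365-83966308), the kinase at the head of the checkpoint, did not exceed background on the naive arrays, at -7.96, -8.02, -7.86 and -7.44, and stood at -4.44, -5.39, -5.91 and -5.05 on the memory arrays, 3 of which were above background. The bound on the fold was at least 1.39 (adjusted p = 0.00014). The call ended with normexp background correction (0.25, adjusted p = 0.238). Bub1 differed by 2.26 ± 0.19 (adjusted p = 7.24e-07, the lowest of the members here), Bub1b by 1.61 ± 0.24 and Mad2l1 by 0.59 ± 0.13. Bub3, a subunit shared by checkpoint complexes, did not pass (-0.20 ± 0.12, adjusted p = 0.232).

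Among the kinesins, the microtubule depolymerase Kif2c (chr4:116536609-116536668) was well above background on all memory and no naive resting arrays. Kif2c read -7.71, -6.50, -7.02 and -5.68 on the naive arrays and -3.17, -4.13, -3.85 and -5.14 on the memory arrays, without overlap. It was at least 3.02-fold higher (adjusted p = 0.000724). Kif11 (1.67 ± 0.37), the motor that pushes spindle poles apart, Kif20a (1.23 ± 0.20) and the chromokinesin Kif4 (1.31 ± 0.21) were higher. Kif22, another chromokinesin (-0.06 ± 0.22), and Kif23 of the central spindle (0.31 ± 0.23) did not pass.

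The proliferation marker Mki67 (chr7:132094802-132094861) was at 0.66, 0.01, 0.13 and -0.01 in naive and 3.15, 2.40, 2.45 and 1.89 in memory resting cells. These values lay apart by over a unit, and the difference was 2.27 ± 0.25 (adjusted p = 1.21e-05; 4.84-fold). The second tested Mki67 probe differed by 2.19. Topoisomerase II alpha (Top2a) differed by 1.497 ± 0.30, the kinetochore proteins Cenpf by 2.10 ± 0.36 and Cenpe by 1.002 ± 0.20, and the spindle proteins Tpx2 by 1.68 ± 0.33, Nusap1 by 1.62 ± 0.32 and Prc1 by 0.93 ± 0.26. Leaving out memory resting replicate 1 ended the call of Prc1 (0.83, adjusted p = 0.0653).

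Of the genes of anaphase, separase (Espl1; 2.04 ± 0.35) and the ubiquitin-conjugating enzyme Ube2c (2.03 ± 0.27) were higher. The separase inhibitor securin (Pttg1; 0.15 ± 0.15) and the activator Cdc20 (0.33 ± 0.21) did not pass. Of the mitotic kinases, Melk (1.06 ± 0.24) and the centrosomal kinase Nek2 (1.23 ± 0.38, adjusted p = 0.0298) were higher, and Plk1 (0.20 ± 0.20) and Aurka (0.18 ± 0.23) did not pass. The Nek2 call was lost with quantile scaling (1.04) and without memory resting replicate 1 (0.96, adjusted p = 0.104) or 2 or naive resting replicate 3 (1.25) or 4 (1.07). Of the cytokinesis genes Ect2 was higher (0.83 ± 0.20), a call that ended with its lowest tested probe (0.59), while anillin (Anln; 1.09 ± 0.45) and Racgap1 (0.41 ± 0.15, adjusted p = 0.0715) did not pass. Racgap1 did not overlap between the groups and passed with normexp (0.41), quantile scaling (0.48), the authors' deposited table (0.49) and without naive stimulated replicate 1 (0.41, adjusted p = 0.00651). Foxm1, the transcription factor of the late cell cycle, was higher by 0.77 ± 0.17 (adjusted p = 0.00414). Cenpa, the histone variant of the centromere, did not pass (0.47 ± 0.18).

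The memory resting arrays were not alike among themselves. The median level over the 40 members was 0.20 on replicate 1, -0.27 on replicate 2, -0.23 on replicate 3 and -0.62 on replicate 4, and on the naive resting arrays it ran from -1.80 to -1.65. Replicate 1 was the highest memory resting array for 32 of the 40 members, the exceptions being Cdc25b, Bub3, Cdc20, Pttg1, Incenp, Kif22, Ect2 and Racgap1. With replicate 1 left out of every group, an alternative chosen after seeing the data, the median difference at rest was 0.93 and 29 members were still called higher.

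Genes listed as markers of other cell types moved with this comparison. Whether other cells or the CD8 T cells themselves carried their RNA was not tested. Of 8 NK or NKT cell markers, 7 were higher in memory resting cells, and their summed linear level, in units of the 75th percentile, was 1.56 to 2.44 on naive and 8.09 to 9.24 on memory resting arrays. Of 12 monocyte, macrophage or neutrophil markers 4 were higher (summed level 8.93 to 15.0 and 14.5 to 23.1), and of 7 dendritic cell and MHC class II markers 5 were (1.88 to 8.55 and 5.45 to 10.1). Of 5 tested B cell markers 1 was higher (1.62 to 2.17 and 1.32 to 1.59). Of 416 sensory receptor genes, which T cells are not known to use, 134 were higher and 7 lower, with a median difference of 0.48. The part of these genes in the mitotic result was not tested.

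After stimulation, memory cells still held more of most mitotic transcripts than naive cells. Of the 40 members, 25 were higher, none was lower and 15 did not pass, against 9.86% of all genes tested that were higher and 14.2% lower (limma; 1815 and 2617 genes, and with normexp 1502 and 1220). The median difference was 1.07, with -0.06 over all genes. The values of 27 members did not overlap between the groups, again not counted over all genes. With the 4 members that had only a bound put at it the median was 0.95, with normexp 0.48, and with replicate 1 left out of every group 0.72, where 21 members were higher. Ttk and Kif2c, among the 25, had entered the test only through memory groups. Of the 33 members with probes above background on all 16 arrays, 20 were higher. Both memory comparisons called 23 members higher, a joint count not made over all genes. A further 6 passed at rest alone (Cdc25c, Kif11, Nusap1, Prc1, Top2a and Foxm1) and 2 after stimulation alone (Plk1 and Kif22). Of these 8, the test of the difference itself passed for Kif22.

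**Figure D3:**
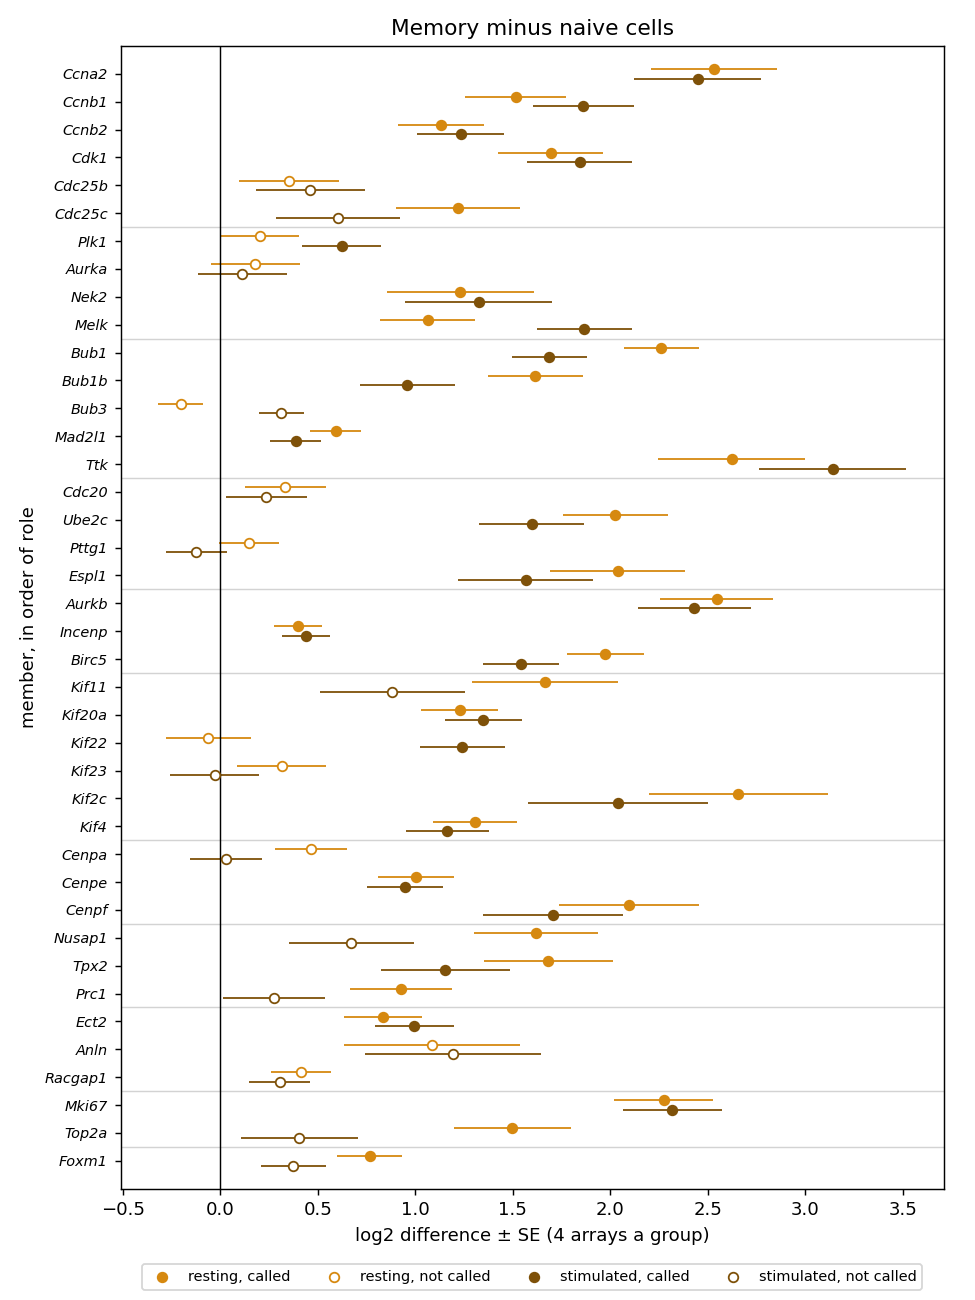
Memory minus naive difference of each of the 40 members at rest (light) and after stimulation (dark), as log2 difference with its SE over 4 arrays a group, filled where the adjusted p was under 0.05. Nearly all points lie to the right of 0, with 29 filled at rest and 25 after stimulation, and the points of Ttk, Kif2c, Cdc25c and Anln are fitted values with a group at background, not measured sizes.

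Several genes that stood apart at rest did so again after stimulation. Ttk was at -6.52, -7.65, -7.96 and -7.73 on the naive stimulated arrays, none well above background, and at -3.96, -5.29, -3.65 and -4.41 on the memory stimulated arrays, all above background, at least 2.41-fold higher (adjusted p = 2.94e-05). Ccna2 was at -2.96, -3.56, -3.27 and -4.09 in naive and -0.28, -1.29, -1.02 and -1.50 in memory stimulated cells, a difference of 2.45 ± 0.32 (adjusted p = 7.1e-05). These groups did not overlap for either gene.

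Aurkb read -4.88, -5.73, -5.96 and -5.54 in naive stimulated cells, with 1 array above background, and -2.33, -3.42, -3.05 and -3.58 in memory stimulated cells, a difference of 2.43 ± 0.29 (adjusted p = 2.68e-05). Mki67 was at -1.07, -1.17, -1.24 and -1.38 and 1.73, 0.88, 1.13 and 0.68, a difference of 2.32 ± 0.25 (adjusted p = 1.16e-05). Again no array of one group reached the other. Kif2c was called higher (adjusted p = 0.00478) with no naive and 2 memory arrays above background, so no size is given, and the call ended with normexp (0.33) and with the authors' deposited table (0.41).

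By role, all 3 passenger complex genes, 4 of 5 checkpoint genes, 4 of 6 cyclins and partners, 4 of 6 kinesins and 3 of 4 mitotic kinases were higher in stimulated memory cells. Melk was higher by 1.87 ± 0.24, Cdk1 by 1.84 ± 0.27, Ccnb1 by 1.86 ± 0.26, Bub1 by 1.69 ± 0.19 and Espl1 by 1.57 ± 0.35. Of the 3 spindle proteins Tpx2 passed, and of the 3 cytokinesis genes Ect2, which did not pass with its lowest tested probe (0.33). Cenpe, also called higher, did not pass with its lowest tested probe either (0.50). The calls of Plk1 (0.62 ± 0.20), Mad2l1 (0.39 ± 0.13), Nek2 (1.32 ± 0.38), Tpx2 (1.15 ± 0.33) and Incenp (0.44 ± 0.12) were each lost without some single arrays. For Plk1 these were the 4 naive stimulated arrays and memory stimulated replicates 1 and 3. For Mad2l1 they were naive stimulated replicates 1 and 4, memory stimulated replicates 1 and 2 and replicates 2 and 3 of both resting groups. For Nek2 they were memory stimulated replicate 1 and naive stimulated replicates 2 and 4, and for Tpx2 memory stimulated replicate 1 and naive stimulated replicate 4. Without memory stimulated replicate 1 the differences were 0.39 for Plk1, 0.33 for Mad2l1, 0.97 for Nek2 and 0.90 for Tpx2. With normexp the stimulated difference was 0.40 for Nek2, 0.47 for Tpx2 and 0.49 for Plk1, and with the authors' deposited table it was 0.69 for Nek2, and none of these passed. Incenp lost its call without memory stimulated replicate 3 (0.34) or naive stimulated replicate 4 (0.39). Mad2l1 also did not pass with the mean of its tested probes (0.34) or with the lowest of them (0.28). With no background filter neither Mad2l1 (adjusted p = 0.0558) nor Plk1 (adjusted p = 0.0528) passed.

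The genes listed for NK or NKT cells moved with this comparison too, all 8 being higher in stimulated memory cells (summed level 2.15 to 3.23 in naive and 6.34 to 9.86 in memory). Which cells carried their RNA was again not tested. Of 12 monocyte, macrophage or neutrophil markers 3 were higher (1.84 to 3.39 and 3.04 to 4.7), and of 7 dendritic cell and MHC class II markers 1 was higher and 1 lower (4.87 to 9.75 and 4.99 to 7.41). Of the sensory receptor genes 33 were higher and 134 lower, with a median of -0.44. The median level of the members on the arrays was -2.88 to -2.39 in naive and -1.85 to -1.23 in memory stimulated cells, replicate 1 being the highest of the latter. The part of the marker genes in the result was not tested.

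Within 4 h of stimulation more than 20 of the mitotic transcripts fell in each cell type. In naive cells 22 members fell, 1 rose (Foxm1) and 17 did not pass, against 32% of all genes tested that fell and 36.7% that rose (limma; 5893 and 6761 genes). In memory cells 29 members fell, 1 rose (Bub3) and 10 did not pass, against 40.8% and 30.1% (7503 and 5534 genes, and with normexp 5031 fell and 6951 rose). The median change of the members was -0.72 in naive and -0.99 in memory cells, with 0.11 and -0.21 over all genes. With the 4 members that had only a bound in naive cells put at it, the naive median was -0.59. Anln in both responses and Kif2c in memory cells were among the falls, and both had entered the test only through memory resting cells. Of the 33 members with probes above background on all 16 arrays, 21 fell in naive and 25 in memory cells. Normexp background correction moved the median over all genes in the memory response to 0.14, and the medians of the members to -0.29 in naive and -0.61 in memory cells.

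The same 22 genes fell in both responses, and a further 7 passed in memory cells alone: Bub1, Bub1b, Kif23, Kif2c, Tpx2, Prc1 and Top2a. Of these 7 memory calls, that of Kif2c ended with normexp (-0.0958), that of Bub1b with quantile scaling (-0.54) and that of Top2a with its lowest probe (-0.86). Passing in memory cells alone does not show that the responses differed. Of the members 14 fell in both responses and were higher in memory cells under both conditions. Shares of all genes with the same joint calls were not computed. Aurka and Cdc20 passed in none of these 4 comparisons, although with the authors' deposited table Cdc20 fell in both responses (-0.52, adjusted p = 0.0207, and -0.62, adjusted p = 0.00744) and with quantile scaling in memory cells (-0.60).

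**Figure D4:**
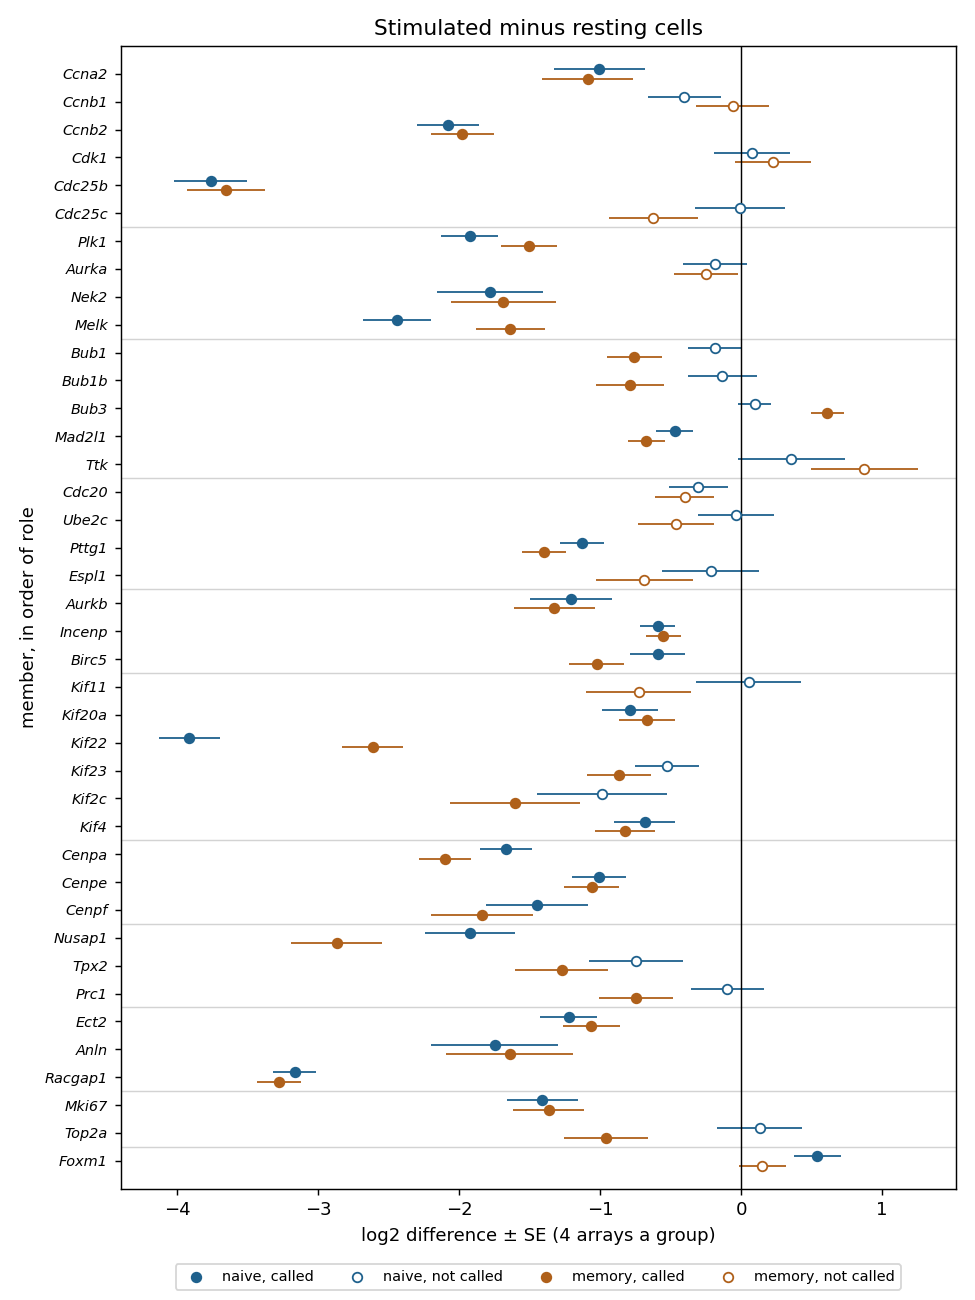
Change of each of the 40 members after stimulation in naive (blue) and memory (orange) cells, as log2 difference with its SE over 4 arrays a group, filled where the adjusted p was under 0.05. Most points lie to the left of 0, and Cdc25b, Racgap1 and Kif22 lie farthest left in naive cells.

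Cdc25b (chr2:130939028-130939087) fell more than any other member in memory cells. It was at 2.35, 2.10, 2.25 and 1.46 in naive resting and -2.18, -1.40, -1.19 and -2.13 in naive stimulated cells, a change of -3.76 ± 0.26 (adjusted p = 8.5e-09; 13.6-fold lower). In memory cells it went from 2.30, 2.66, 2.64 and 1.97 to -1.24, -1.01 and -1.53, a change of -3.65 ± 0.28 (adjusted p = 2.63e-08), where the spot of memory stimulated replicate 2 was left out as an outlier and 3 values remain. Resting and stimulated values lay over 2 units apart in both cell types. The 2 other Cdc25b probes changed by -3.55 and -4.02 in naive cells and by -3.44 each in memory cells, and the probe at -4.02 was not well above background on any stimulated array. Its relative Cdc25c did not pass in either response.

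Of the other cyclins and partners, Ccnb2 changed by -2.08 ± 0.22 in naive and -1.98 ± 0.22 in memory cells, and Ccna2 by -1.01 ± 0.32 and -1.09 ± 0.32. The naive Ccna2 call ended with normexp (-0.33) and with the authors' deposited table (-0.64). Ccnb1 (-0.40 and -0.06) and Cdk1 (0.08 and 0.23) did not pass in either cell type.

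Kif22 (chr7:123124337-123124396) went from 2.15, 3.02, 3.05 and 3.09 to -1.34, -0.85, -0.91 and -1.27 in naive cells, a change of -3.92 ± 0.22 (adjusted p = 3.66e-10; 15.1-fold lower). In memory cells it went from 2.50, 2.88, 2.76 and 2.92 to 0.49, 0.01, 0.34 and -0.25, a change of -2.62 ± 0.22 (adjusted p = 3.5e-08; 6.13-fold lower). The resting values of the 2 cell types overlapped, the stimulated values did not, and each response was far larger than the spread between arrays. Of the other kinesins, Kif20a (-0.79 and -0.67) and Kif4 (-0.68 and -0.82) fell in both. The naive Kif4 call ended with normexp (-0.28) and with its lowest tested probe (-0.45).

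Racgap1 (chr15:99606331-99606390), which acts at the central spindle to place the cleavage furrow, was at 0.25, 0.50, 0.53 and 0.46 in naive resting and -3.32, -2.41, -2.58 and -2.63 in naive stimulated cells, a change of -3.17 ± 0.15 (adjusted p = 9.73e-11). Memory cells went from 0.82, 0.80, 0.94 and 0.84 to -2.36, -2.50, -2.40 and -2.48, a change of -3.28 ± 0.15 (adjusted p = 6.56e-11). These were the lowest adjusted p of any member in the responses, with no overlap between resting and stimulated arrays. Its second probe changed by -2.97 and -2.60. Ect2, which Racgap1 activates, changed by -1.22 ± 0.20 and -1.06 ± 0.20, and its naive call ended with the lowest tested probe (-0.499). Anillin was called lower in both responses, but no naive stimulated and 1 memory stimulated array was above background, so no size is given. Its sign turned with normexp (0.0191 and 0.0621) and its calls ended with the authors' deposited table.

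Melk (chr4:44377775-44377834), a kinase of dividing cells, was at -2.72, -2.65, -2.43 and -2.67 in naive resting and -4.64, -5.37, -4.93 and -5.29 in naive stimulated cells, a change of -2.44 ± 0.24 (adjusted p = 2.84e-07). In memory cells Melk went from -1.09, -1.74, -1.55 and -1.85 to -2.39, -3.37, -3.44 and -3.56, a change of -1.64 ± 0.24 (adjusted p = 2.17e-05). The groups did not overlap in either cell type. Plk1, the polo-like kinase that drives mitotic entry, changed by -1.93 ± 0.20 and -1.50 ± 0.20, and Nek2 by -1.78 ± 0.38 and -1.69 ± 0.38. With 2 of 4 naive stimulated arrays of Nek2 well above background, its naive call ended with normexp (-0.39, adjusted p = 0.0635).

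Nusap1 (chr2:119390185-119390244), which bundles spindle microtubules, went from -1.30, -1.23, -1.14 and -1.34 to -4.16, -2.70, -2.51 and -3.34 in naive cells, a change of -1.92 ± 0.32 (adjusted p = 6.95e-05). In memory cells Nusap1 went from 1.03, 0.31, 0.39 and -0.28 to -2.003, -2.79, -2.67 and -2.57, a change of -2.87 ± 0.32 (adjusted p = 9.94e-07). Stimulated arrays lay below resting arrays throughout. Tpx2 (-0.75 and -1.27) and Prc1 (-0.10 and -0.75) passed in memory cells alone, Prc1 not without memory resting replicate 1 (-0.65).

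All 3 centromere and kinetochore genes fell in both responses, with Cenpa at -1.67 ± 0.18 and -2.10 ± 0.18, Cenpf at -1.45 and -1.84 and Cenpe at -1.01 and -1.06. So did the 3 passenger complex genes, Aurkb at -1.21 ± 0.29 and -1.32 ± 0.29, Birc5 at -0.59 and -1.02 and Incenp at -0.59 and -0.55. With 1 naive stimulated array of Aurkb above background, its naive call ended with normexp (-0.19). The naive Cenpe call ended with its lowest tested probe (-0.34). Securin changed by -1.13 ± 0.15 and -1.40 ± 0.15 and Mki67 by -1.41 ± 0.25 and -1.37 ± 0.25. Espl1 (-0.22 and -0.69) and Ube2c (-0.03 and -0.46) did not pass in either response.

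Foxm1 was the member that rose in naive cells (0.54 ± 0.17, adjusted p = 0.00929). It was at -2.37, -2.37, -2.33 and -2.27 at rest and -2.35, -1.67, -1.57 and -1.59 after stimulation, so that replicate 1 stayed within the resting values and the other 3 arrays rose. In memory cells it changed by 0.15 ± 0.17 and did not pass.

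**Figure D5:**
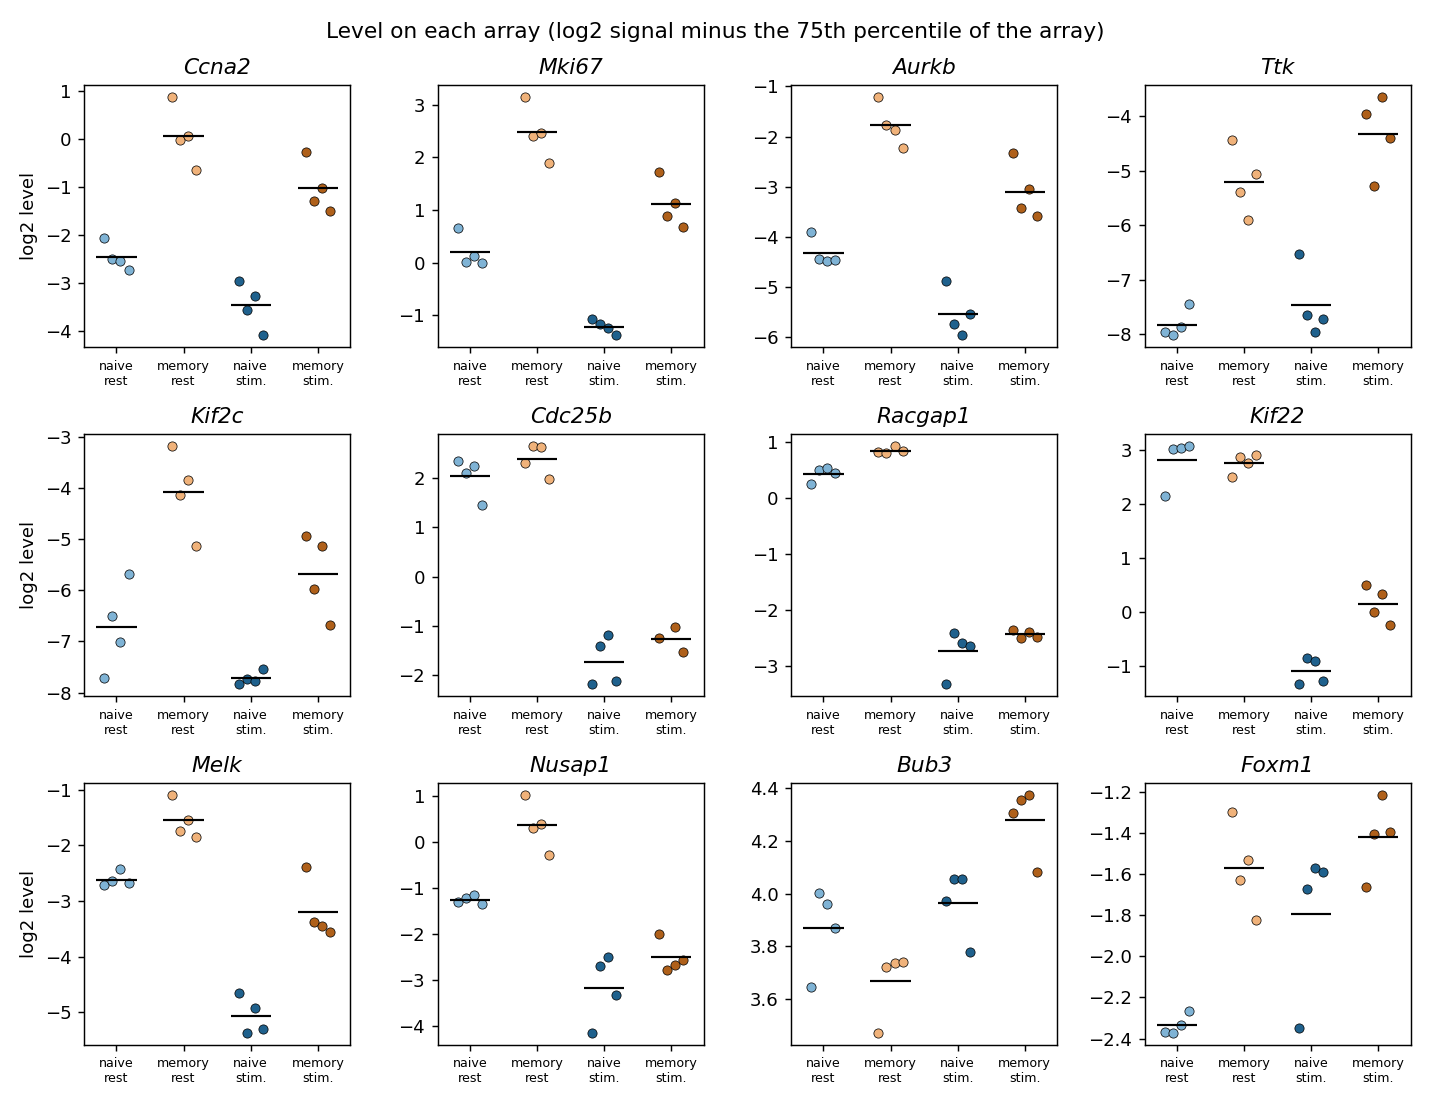
Level on each array of the 11 members with the largest called changes and of Foxm1, as log2 signal minus the 75th percentile of the array, in the 4 groups named under each panel, with the group mean as a line. The 4 points of a group are replicates 1 to 4 from left to right, and each panel has its own axis because levels of different probes are not comparable.

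The responses of the 2 cell types differed in 2 of 40 members (5.0%), both less negative or more positive in memory cells. Over all genes 5.62% passed in that direction, a share near that of the members, and 14.1% in the other, where no member passed. These were 1034 and 2601 genes with the limma interaction term, and 1134 and 1162 with normexp. Kif22 fell less in memory cells, by 1.30 ± 0.31 (adjusted p = 0.00754). Bub3 (chr7:127925425-127927641) was at 3.64, 4.00, 3.96 and 3.87 in naive resting and 3.97, 4.06, 4.06 and 3.78 in naive stimulated cells, and at 3.47, 3.72, 3.74 and 3.74 and 4.31, 4.36, 4.38 and 4.08 in memory cells. Its naive values overlapped and its memory values did not, with changes of 0.10 ± 0.12 (adjusted p = 0.473) and 0.61 ± 0.12 (adjusted p = 0.000219). The difference of 0.52 ± 0.16 (adjusted p = 0.0372) did not pass with normexp (0.42), quantile scaling (0.37), the authors' deposited table (0.32) or without any 1 of 9 arrays (0.45 to 0.53), which were memory resting replicates 1 and 2, memory stimulated replicates 1 to 3, naive resting replicates 2 to 4 and naive stimulated replicate 4. The memory rise itself ended with quantile scaling (0.06) and with the authors' deposited table (0.02). Top2a changed by -0.96 ± 0.30 in memory cells, where it passed, and by 0.13 ± 0.30 in naive cells, where it did not, and the difference of -1.09 ± 0.42 had an adjusted p of 0.0857.

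Markers moved with the responses as well. Of 12 monocyte, macrophage or neutrophil markers 8 fell and 1 rose in naive cells, and 9 fell and none rose in memory cells. Their summed levels were 8.93 to 15.0 and 14.5 to 23.1 at rest, and 1.84 to 3.39 and 3.04 to 4.7 after stimulation. Of 10 T cell markers 7 fell and 2 rose in naive cells, and 5 fell and 3 rose in memory cells. Cd8a changed by -1.59 ± 0.21 and -1.38 ± 0.21, and Cd5 rose by 1.60 ± 0.21 in memory cells. Of 7 dendritic cell and MHC class II markers 4 rose and none fell in naive cells, and none rose and 2 fell in memory cells. Of 416 sensory receptor genes 198 rose and 35 fell in naive cells (median 0.52), and 42 rose and 192 fell in memory cells (median -0.52). In the interaction 28 of these 416 were higher and 194 lower, with a median of -0.996. The part of the markers and of the sensory receptor genes in the fall of the mitotic genes was not tested.

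Another 69 genes known to peak in G2 or mitosis were set beside the members. The counts of this list and of those that follow stand against the shares over all genes, which were 13.9% higher and 7.47% lower at rest, 9.86% and 14.2% after stimulation, 36.7% and 32% in the naive response and 30.1% and 40.8% in the memory response. At rest 39 were higher in memory cells and none lower, with a median of 0.90, and after stimulation 32 were higher and 2 lower, with a median of 0.64. Ska1, a kinetochore protein, differed by 2.72 ± 0.23 at rest and 2.42 ± 0.23 after stimulation, and the kinase Pbk by 2.46 ± 0.26 after stimulation. In the responses 35 fell and 11 rose in naive cells, and 44 fell and 9 rose in memory cells. Depdc1b changed by -3.94 ± 0.35 and -4.07 ± 0.35, and Ndc80, which couples kinetochores to microtubules, by -3.87 ± 0.18 and -3.33 ± 0.18. Kif15, a spindle kinesin, was among those that rose, from -3.53 ± 0.10 to 0.54 ± 0.29 (SD, n = 4) in naive cells, a rise of 4.07 ± 0.20.

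Upstream of these genes stand the factors that repress or activate them. Of 22 E2F, DREAM and MuvB genes, 8 fell in each response, while 6 rose in naive and 7 in memory cells. The pocket proteins of DREAM had the largest changes of the list in both responses, Rbl2 (p130) of -4.79 ± 0.09 in naive and -4.13 ± 0.09 in memory cells and Rbl1 (p107) of -4.18 ± 0.14 and -3.26 ± 0.14. E2f2 changed by -3.68 ± 0.15 and -2.85 ± 0.15. At rest 5 were higher and 2 lower in memory cells, among them the repressors E2f8 (at least 3.72-fold higher) and E2f7 (2.36 ± 0.18).

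Genes of DNA replication act before mitosis, in S phase. Of 41 S phase genes 13 were higher and none lower in memory cells at rest, and 15 were higher and 1 lower after stimulation, led at rest by thymidine kinase Tk1 (2.14 ± 0.28) and Mcm10 (1.94 ± 0.23). In the responses 20 fell and 10 rose in naive cells, and 16 fell and 9 rose in memory cells. Orc1, a subunit of the origin recognition complex, rose by 1.89 ± 0.21 and 2.38 ± 0.21, and the polymerase subunit Pole2 changed by -2.14 ± 0.15 and -1.80 ± 0.15.

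Genes of cell cycle entry mostly rose after stimulation. Of 7 G1 cyclins, kinases and Myc, 5 rose and 1 fell in naive cells, and 4 rose and 1 fell in memory cells. Myc, a driver of growth, rose by 4.67 ± 0.11 and 5.97 ± 0.11, cyclin D2 (Ccnd2) rose by 3.54 ± 0.14 and 3.43 ± 0.14, and cyclin D3 (Ccnd3) changed by -2.49 ± 0.14 and -2.13 ± 0.14. At rest Myc was lower in memory cells (-1.36 ± 0.11). Among 16 brakes and checkpoint genes of G2/M, 6 rose and 5 fell in naive and 8 rose and 5 fell in memory cells. The Cdk inhibitor p27 (Cdkn1b) changed by -3.26 ± 0.13 and -3.89 ± 0.13, and p21 (Cdkn1a) by 3.15 ± 0.37 and 3.49 ± 0.37.

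Some partners of the members are made throughout the cell cycle. Of 24 constitutive subunits of the anaphase-promoting complex and exit factors, none was higher and 3 were lower in memory cells at rest, and 2 were higher and 1 lower after stimulation. In the responses 6 rose and 8 fell in naive cells and 11 rose and 7 fell in memory cells, with Anapc2 at -2.11 ± 0.11 and -1.58 ± 0.11 and the E2 enzyme Ube2s at 1.29 ± 0.17 and 1.88 ± 0.17. Of 12 cohesin genes and loaders 6 fell and 1 rose in each response, 1 was higher and 1 lower (Nipbl) in memory cells at rest, and 1 was higher after stimulation. The gene higher in both was Esco2, a cohesin acetyltransferase of S phase, which differed by 2.11 ± 0.25 at rest and was at least 2.63-fold higher after stimulation.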

How the data were processed

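RNA of 16 samples was hybridised singly to 1-colour Agilent arrays carrying probes of 60 bases. The authors' software, per the file headers, corrected each spot's background and deposited its processed intensity on a linear scale, with mean and background intensity and flags for spots well above background or outlying. A deposited table of 33797 rows holds the authors' own linear intensity per probe, with its processing not given in the sources used here; its median was 149 on every array and its lowest value 30. It served as an alternative.

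Intensities were converted to log2, the 75th percentile over non-control spots of each array was subtracted, outlier spots (59 to 116 of 43379 per array) were dropped and spots of a probe were averaged. A probe was tested if well above background on at least 3 of 4 arrays of a group (27349 probes), and a gene (18403) was read from its tested probe with the highest mean. Symbols came from RefSeq for 32719 probes and from the files for 8455. In R 4.3.3, limma 3.58.1 (lmFit, eBayes) fitted 1 mean for each group over the 16 arrays together. P-values were two-sided, adjusted by Benjamini-Hochberg over all genes, with a threshold of 0.05, and every adjusted p comes from this fit unless an alternative is named beside it. The script was tested on simulated data. Where a probe was below background on a whole group, "at least" compares the bright mean with the higher of the lowest signal above background and the dim probe's own, per array. Positions are the files' (mm7); exon and UTR annotation was not used here. Promoters come from RefSeq, GRCm38.p6; a gene with several windows counts if any has the letters, and positions use the first. Sensory receptor genes are those whose symbols begin as olfactory, vomeronasal or taste receptors.

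The members and lists were chosen with earlier results of these data known. Values on every array are given for members among the 4 largest called changes of a comparison, and up to 3 genes per list and comparison were eligible for naming; Cdc20, Foxm1, Top2a, Cd8a, Cd8b1, Cd4 and the other members are named for completeness. Alternatives were normexp background correction (offset 50; 33 aberrant background values replaced), quantile scaling, the authors' table, other filters and probe choices, the compared arrays alone, the replicate number as a block, leaving out each array and, chosen after seeing the data, leaving replicate 1 out of every group.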

Additional observations from a re-analysis of the deposited data

Results flagged for a closer look

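Over the 40 members and 4 groups, 12 of 160 sets of 4 arrays held a value farther from the others than Dixon's critical value for 4 values allows, where chance gives about 1 in 20, and 11 of the 12 were replicate 1. In memory stimulated cells replicate 1 was high in Cdk1 (-0.62, the others -1.85 to -1.73) and Melk (-2.39). In memory resting cells replicate 1 was low in Bub3 (3.47) and high in Mad2l1 (0.33). Naive resting replicate 1 was low in Aurka (0.47), Kif22 (2.15) and Prc1 (-0.68) and high in Aurkb (-3.90), and naive resting replicate 4 was low in Kif23 (-0.74). Naive stimulated replicate 1 was low in Aurka (0.0794), Cenpa (-1.75) and Foxm1 (-2.35). With replicate 1 left out of every group the counts of members lower in the responses were 23 and 30, and of members higher in memory cells 29 and 21.

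The memory response exceeded the naive response in Kif22 by 1.30 (limma interaction, adjusted p = 0.00754) and in Bub3 by 0.52 (adjusted p = 0.0372), on the log2 scale. In each cell type the 4 stimulated values of Kif22 lay below the 4 resting values.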

How the results depend on the processing

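Of the 1925 results for single members under settings other than leaving out 1 array, 1831 kept their direction and side of the threshold, 48 lost the call, 42 gained one and 4 reversed. Reversals were Anln with normexp (0.0191 in naive, 0.0621 in memory cells) and the naive change of Bub3 with quantile scaling (-0.31) and the authors' table (-0.30). Of 3200 results with 1 array left out, 43 lost and 36 gained a call and none reversed. Members called higher in the memory response (1) became 2 with normexp, quantile scaling or the replicate block, 3 with replicate 1 left out of every group and 0 with the lowest probe (1 to 2 without 1 array). Members higher in the interaction (2) became 1 with normexp, quantile scaling, the authors' table, the mean of probes or the lowest probe (1 to 2 without 1 array), and members lower (0) became 1 with normexp or the block and 2 with replicate 1 left out (0 to 3 without 1 array). Over all genes, with normexp 1638 were higher at rest, 1220 lower after stimulation and 1162 lower in the interaction. With probes above background on all 16 arrays 1652 were lower in the interaction. With the authors' table, counts were 2206 lower at rest and 1681 higher in the interaction, and with the block 2412 and 1698; the cause was not tested. Genes lower at rest (1375) ran from 851 to 1927 without 1 array, with 851 without memory resting replicate 1, 886 without naive resting replicate 2 and 901 without naive resting replicate 3. Called genes that were higher made up 65.0% at rest, 48.5% with normexp and 50.2% with the authors' table; after stimulation 41.0% and 55.2% with normexp; in the memory response 42.4% and 58.0%; in the interaction 28.4%, 49.4%, 40.6% with quantile scaling and 46.0% with the authors' table. TTCGCGC was in 0 of 33 members in the last 150 bases of the promoter window. The labels do not say that a replicate number marks a shared preparation, and not every same-numbered pair correlated over 0.1, so no pairing was assumed. Same-numbered arrays of different groups had a median r of 0.161 (-0.211 to 0.585, 16 of 24 over 0.1) in their deviations from the group means, others -0.0714 (13 of 72 over 0.1), and 13 of 16 arrays correlated best with their own number, a hint of a shared effect. The replicate number was also the array position on every slide, so a shared preparation and a shared position cannot be told apart. With the replicate block the interaction also passed for Top2a (-1.09, adjusted p = 0.0243) and Melk (0.80, 0.036), the naive response for Tpx2 (0.0204) and Kif23 (0.0332) and the memory response for Espl1 (0.00445), Cdc20 (0.0357) and Ttk (0.0336). The slide could not be fitted as a block, since no slide held more than 1 group. Signal near background limits Ttk, Kif2c, Cdc25c and Anln. In naive stimulated cells it also limits Aurkb (1 of 4 arrays well above background) and Nek2 (2 of 4).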
